A study of Mus musculus with 12 samples.

Results

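Astrocyte genes were followed in the hippocampus of mice in which a miRNA had been inhibited in neurons. The set holds 37 genes that mark mature astrocytes, given as a list of symbols, out of 23777 gene symbols with a row in the count tables. RefSeq transcript entries were joined to symbols and summed, and 32 of the 37 genes had enough reads to be tested in each experiment. Messenger RNA came from both hippocampi of 12 male C57BL/6 mice, 6 for each of 2 experiments. All mice were injected at 10 weeks of age with an AAV vector (AAV2/5 in the methods, AAV5 in the labels) that expressed GFP from the human synapsin promoter, which is active in neurons, and were dissected 10 weeks after that. For miR-9, 3 mice given GFP-miR-9sp (mice 9, 17 and 23) were set against 3 given GFP without a sponge (GFP Ctrl, mice 2, 8 and 16). For miR-34, 3 mice given GFP-miR-34sp (mice 3, 13 and 18) were set against a separate GFP Ctrl group of 3 (mice 4, 8 and 10). The sponges, transcripts with 8 imperfect target sites that hold a miRNA away from its own targets, were thus directed to neurons and not to the cells whose genes are described here, and the injection itself and the GFP were shared by all 4 groups. The labels call the cell type hippocampal neurons, but the tissue was the whole hippocampus, and the astrocyte genes made up 1.43 to 1.58% of the normalised reads in each of the 12 mice.

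Astrocytes take up glutamate and GABA from the synapse, turn glutamate into glutamine, buffer potassium and water, supply neurons with metabolites and secrete lipoproteins and matrix proteins. Genes for these tasks are called homeostatic here. After injury or inflammation astrocytes become reactive, and a rise of Gfap, the intermediate filament protein of astrocytes, is the change most often used to recognise this state. Some of these genes are not exclusive to astrocytes, since microglia also make Apoe, ependymal cells also make Clu, Sox9 and S100b, and neurons also make Mt3. In whole tissue, fewer cells of a type and less RNA per cell cannot be told apart.

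A miRNA recognises its targets mainly through its seed, bases 2 to 8, shown here in capitals in the mature mouse sequences (RefSeq, GRCm38.p6) because they define what each sponge was made to hold.
mmu-miR-9-5p: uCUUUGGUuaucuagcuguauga
mmu-miR-34a-5p: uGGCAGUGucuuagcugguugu
mmu-miR-34b-5p: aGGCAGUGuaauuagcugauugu
The last 2 share a seed. The heptamers complementary to the seeds, ACCAAAG for miR-9 and CACTGCC for miR-34, were searched on the sense strand of the longest annotated 3′ UTR of each gene (GENCODE M1 on mm9), which all 37 astrocyte genes had. An 8mer is the heptamer followed by A, so every 8mer also counts as a heptamer. The miR-9 heptamer was found in 3 astrocyte genes, Aldoc, Dio2 and Plcd4, and in 6.25% of the tested astrocyte genes against 13.8% of 10732 tested genes. The miR-34 heptamer was found in 5, Aqp4, F3, Ppp1r3c, Slc1a2 and Slc6a11, which is 15.6% of those tested against 17.4% of 10323 tested genes. No tested astrocyte gene held an 8mer, against 4.44% (miR-9) and 6.08% (miR-34) of all tested genes. A match is a description of the letters only. The matches are shown with the heptamer in capitals, since these are the astrocyte genes with letters that the miRNA in question could pair with, with the place of the heptamer on mm9. The match in Aqp4 is named only.
Aldoc (miR-9, chr11:78140294-78140300, plus strand): ttgcacatACCAAAGtctacctc
Dio2 (miR-9, chr12:91963432-91963438, minus strand): actttataACCAAAGcaatcaca
Plcd4 (miR-9, an 8mer, chr1:74610987-74610994, plus strand): tggataaaACCAAAGAgacaaccg
F3 (miR-34, chr3:121437185-121437191, plus strand): aacgctcaCACTGCCtgcacggc
Ppp1r3c (miR-34, chr19:36807883-36807889, minus strand): aatctacaCACTGCCcttgtctg
Slc1a2 (miR-34, chr2:102625897-102625903, plus strand): tcccagttCACTGCCctcgccct
Slc6a11 (miR-34, chr6:114199304-114199310, plus strand): atgcccagCACTGCCcccaccta

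Each mouse of the miR-9 experiment had 17279620 to 24428477 counts, and those of the miR-34 experiment were sequenced less deeply, at 11029604 to 16934133 counts. A count of 0 allows up to 3 reads, for counting error only. In mouse 9 of GFP-miR-9sp and mouse 16 of its GFP Ctrl the single entry NR_046233 took 1.38% and 1.46% of the reads, against 0.474 to 0.646% in the other 4 mice of that experiment, and in the mice of the miR-34 experiment it took 0.133 to 0.164%. Transcripts of the choroid plexus, a tissue that lies beside the hippocampus in the ventricle, varied between mice of every group. Ttr, its main secreted protein, was at 16.4, 772 and 22 CPM in the GFP-miR-9sp mice and 655, 82.2 and 239 CPM in their GFP Ctrl mice. It was at 91.1, 104 and 28 CPM in the GFP-miR-34sp mice and 1821, 2197 and 583 CPM in theirs, so that the groups of the miR-34 experiment did not overlap. CPM here are counts relative to the TMM-normalised total of each mouse, scaled to 1000000, within an experiment.

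Astrocyte genes were among the more abundant transcripts of the tissue. Levels of different genes were compared per length, as RPKM (CPM divided by the length of the transcript in kilobases). These CPM were normalised within each experiment and not on 1 scale for all 12 mice. This was done for the 28 genes with a single RefSeq entry. Their median was 80.1 RPKM, against 11.8 over all 10728 detected genes with 1 entry, and 15 of the 28 lay in the top 10% of those genes and 22 in the top 25%.

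The highest was Apoe, the main lipoprotein of the brain, at a mean of 1451 RPKM (range 1339 to 1607, n = 12). Next came Sparcl1, a secreted protein that promotes synapse formation, at 928 RPKM (813 to 1009), and Glul, which makes glutamine from glutamate, at 804 RPKM (774 to 860). The ranges of Apoe and Sparcl1 did not overlap, whereas those of Sparcl1 and Glul did. Clu, a secreted chaperone, followed at 667 RPKM (610 to 733), then Aldoc, the brain aldolase, at 605 (573 to 649), and Mt3, a metal-binding protein, at 512 (435 to 604). The lowest 3 were Dio2, the deiodinase that activates thyroid hormone, at 17.7 RPKM (15.2 to 20.1), Prodh, which breaks down proline, at 12.2 (11.4 to 13.2), and Entpd2, which degrades extracellular ATP, at 9.23 (8 to 10.2). The ranges of these 3 did not overlap. Aldh1l1, a folate enzyme widely used as a marker of all astrocytes, was at 23 RPKM (21 to 25.8), close to the transcription factor Sox9 at 22.5 RPKM (19.4 to 25.6), and these neighbours did overlap. Within a gene the 12 mice lay close together in comparison with the distance between genes.

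**Figure D1:**
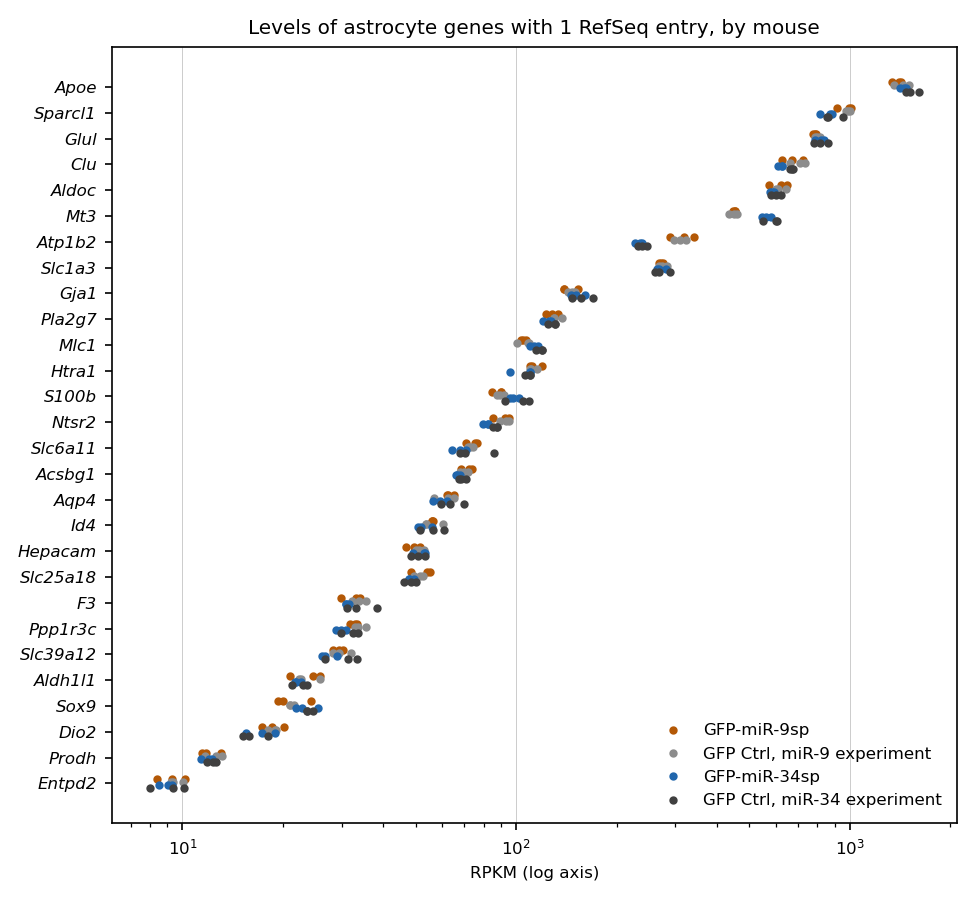
RPKM (log axis) of the 28 astrocyte genes with 1 RefSeq entry, 1 point for each of the 12 mice, coloured by group. The genes run from Apoe (mean 1451) to Entpd2 (mean 9.23), and the points of the 4 groups overlap for most genes.

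The other 9 astrocyte genes have several RefSeq entries and were counted poorly. Slc4a4, a bicarbonate transporter, and Cldn10, a claudin, had 0 reads on all of their 3 and 6 entries in all 12 mice. Cbs, an enzyme of cysteine synthesis, had 0 to 6 reads per mouse, Gjb6, a connexin of astrocyte gap junctions, 1 to 7, and Plcd4, a phospholipase, 2 to 15. These are the 5 genes that could not be tested. Fgfr3, a growth factor receptor, had 7 to 25 reads and Ndrg2, a cytoplasmic protein of astrocytes, 19 to 65, so both were tested at very low counts. Only Gfap (3493 to 8799 reads) and Slc1a2 (1126 to 3062) of this kind were well covered. Over all genes, 57.9% of those with 1 entry and 35.2% of those with 2 or more entries had a mean above 10 reads, and the counting rule for reads shared between entries is not given in the sources used here, so that low counts of these 9 genes are no measure of their expression.

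The first comparison asked whether astrocyte genes differed after inhibition of miR-9 in neurons. None of the 32 tested genes passed an adjusted p of 0.05 (quasi-likelihood test of edgeR, Benjamini-Hochberg over all genes tested), as was true of all 12902 genes (0%), and DESeq2 called no astrocyte gene and 0.0155% of all genes. At an unadjusted p of 0.05 edgeR still called 0 of 32, against 4.76% of all genes, the study's criterion (an unadjusted p under 0.05 with a change of at least 1.2-fold) called 0 of 32, against 1.43%, and for 0 of 32 genes did the sponge and GFP Ctrl mice not overlap, against 10.2% of all genes. Of the 32 genes, 18 were lower and 14 higher in GFP-miR-9sp mice (50.3% of all genes were lower). Their median log2 fold change was -0.017, beside -0.001 over all genes, and turned to 0.011 without mouse 23 of GFP-miR-9sp. For 29 of 32 genes the 95% interval of the ratio lay within 1.2-fold either way (53.1% of all genes), the 3 others being Gfap, Fgfr3 and Ndrg2, which were spread widely or thinly counted.

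Among the genes of glutamate, GABA and amino acid handling, the 6 tested had log2 fold changes between -0.05 and 0.04. Slc1a3, a glutamate transporter, had 1141, 1156 and 1124 CPM in the GFP-miR-9sp mice and 1188, 1124 and 1151 CPM in GFP Ctrl, and Slc6a11, a GABA transporter, had 306, 310 and 287 CPM beside 292, 302 and 295 CPM. For both genes the groups overlapped. Slc25a18, a glutamate carrier of mitochondria, differed by 0.04 ± 0.05 (log2, SE).

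The 6 tested genes of water, ion, junction and membrane proteins differed by -0.06 to 0.04 on the log2 scale. Aqp4, the water channel of astrocyte endfeet, had 317, 331 and 316 CPM beside 330, 289 and 317 CPM in GFP Ctrl. Hepacam, an adhesion protein that holds the membrane protein Mlc1 at cell contacts, had the smallest p of the 32 genes, at 159, 153 and 144 CPM beside 158, 155 and 163 CPM. Its log2 fold change was -0.06 (95% interval -0.16 to 0.04, edgeR adjusted p = 0.97), and its groups overlapped.

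The 6 tested metabolic enzymes differed by -0.06 to 0.04. Ppp1r3c, which targets a phosphatase to glycogen, had 87.8, 89.5 and 84.9 CPM beside 89.9, 95.1 and 88.3 CPM, a log2 fold change of -0.06 ± 0.04. Acsbg1, a fatty acid activating enzyme, differed by 0.04 ± 0.04 and Pla2g7, a lipoprotein-associated phospholipase, by -0.05 ± 0.04. Aldoc and Dio2, the tested genes with the miR-9 heptamer printed above, differed by -0.01 ± 0.05 and 0.00 ± 0.05.

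The 4 secreted proteins differed by -0.06 to 0.02. Apoe had 1779, 1754 and 1676 CPM in GFP-miR-9sp mice and 1884, 1700 and 1805 CPM in GFP Ctrl, and Clu had 1215, 1308 and 1136 CPM beside 1325, 1199 and 1283 CPM. In both cases the sponge mice lay partly inside the range of the GFP Ctrl mice. Of the receptors and signalling proteins, F3, the tissue factor that starts coagulation, differed by -0.06 ± 0.06, and Fgfr3 by 0.33 ± 0.26 at 17 to 25 reads per mouse. The transcription regulators Sox9 and Id4 differed by 0.01 ± 0.07 and 0.00 ± 0.05.

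After inhibition of miR-34 there was again no astrocyte gene with an adjusted p below 0.05, but most of the genes were slightly lower. The edgeR test called 0 of 32 (0.0324% of 12360 genes, namely Aqp1, Slc16a8, Tmem72 and Ttr), DESeq2 called 0 (0.283% of all genes), and the study's criterion called 0 of 33 (1.98% of all genes). At an unadjusted p of 0.05 edgeR called 3 of 32, Gfap, Clu and Ntsr2 (6.38% of all genes), each lower in GFP-miR-34sp mice (3.7% of all genes were called lower). The sponge and GFP Ctrl mice did not overlap for 4 of 32 genes, these 3 and Apoe (11.6% of all genes), and again each was lower (5.77% of all genes). Of the 32 genes, 27 were lower and 5 higher, against 50.3% lower over all genes. The median log2 fold change was -0.050, beside -0.001 over all genes. Since Ttr separated these groups, the amount of choroid plexus RNA and the sponge cannot be told apart for this shift. For 25 of 32 genes the 95% interval of the ratio lay within 1.2-fold either way (49.8% of all genes).

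**Figure D2:**
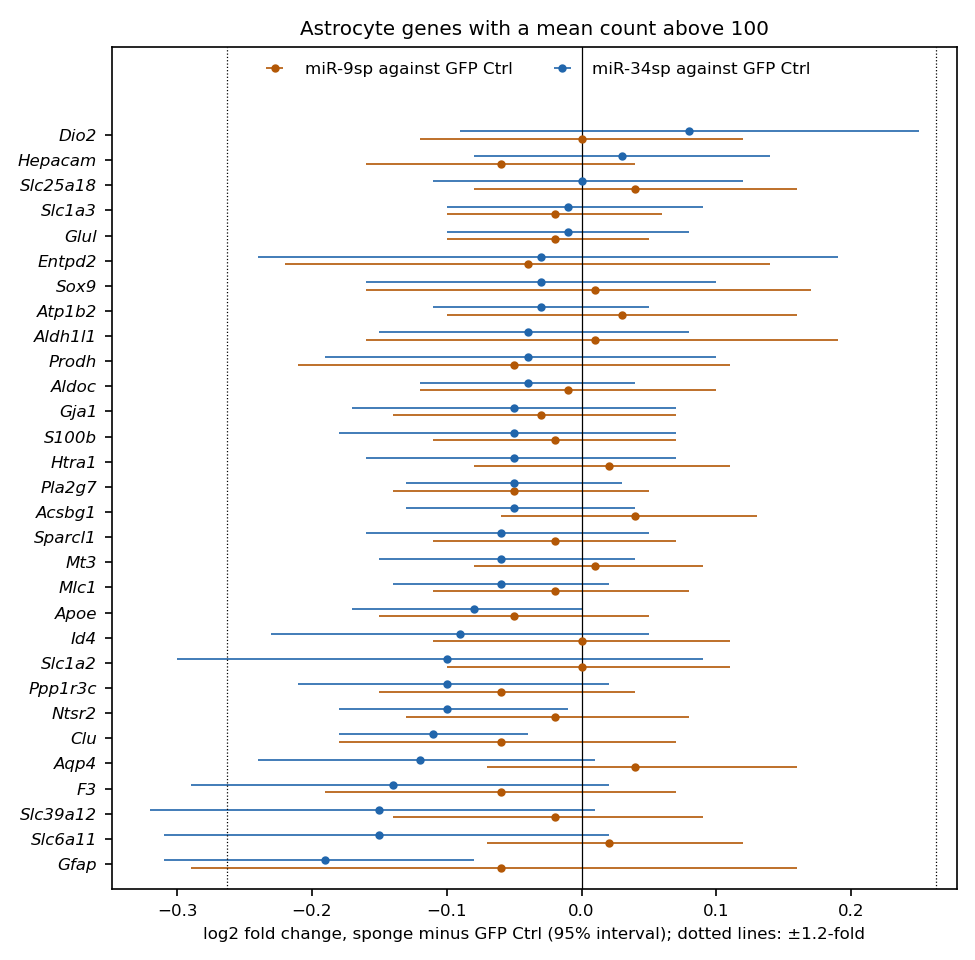
Fold change (log2, sponge minus GFP Ctrl) with its 95% interval for the 30 astrocyte genes with a mean count above 100, miR-9sp in orange and miR-34sp in blue, 3 mice against 3 each. Dotted lines mark 1.2-fold, and the blue points lie mostly left of 0, with Gfap lowest at -0.19.

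Gfap had 353, 340 and 304 CPM in the GFP-miR-34sp mice and 389, 366 and 386 CPM in GFP Ctrl. All 3 sponge mice lay below all 3 GFP Ctrl mice. The ratio was 0.874 (95% interval 0.807 to 0.947), a log2 fold change of -0.19 ± 0.05 (SE) with an edgeR adjusted p of 0.467. The exact permutation test gave p = 0.1, two-sided, the smallest value that 3 against 3 mice allow. When all genes with at least 1 read were kept, edgeR gave the same fold change with an adjusted p of 0.0462, and called 1 of 35 astrocyte genes and 0.434% of all genes, against 0 of 35 and 0.0106% in the miR-9 experiment. DESeq2 gave an adjusted p of 0.152. Leaving out each mouse in turn gave log2 fold changes of -0.24 to -0.13. Both RefSeq entries of Gfap were lower, NM_010277, which held 91.5 to 92.8% of the Gfap reads in these mice, with a log2 fold change of -0.19 ± 0.05 (edgeR adjusted p = 0.503), and the shorter NM_001131020 with one of -0.26 ± 0.08 (edgeR adjusted p = 0.572).

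In the miR-9 experiment Gfap had 288, 378 and 307 CPM in the sponge mice and 353, 298 and 364 CPM in GFP Ctrl. The groups overlapped, and the log2 fold change was -0.06 ± 0.10 (95% interval -0.29 to 0.16, edgeR adjusted p = 0.976). The sign turned to 0.02 without mouse 9 of GFP-miR-9sp, and to 0.07 without both mice rich in NR_046233, an alternative chosen after seeing the data. The effects of the sponges on Gfap differed by -0.13 (95% interval -0.40 to 0.14, edgeR adjusted p = 0.896).

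Gfap was also set beside Ttr. In the miR-34 experiment the summed choroid plexus markers were at 101 to 191 CPM in the sponge mice and 714 to 2589 CPM in GFP Ctrl. Of 16 tested choroid plexus genes 15 were lower at an unadjusted p of 0.05, with a median log2 fold change of -2.99, and 3 of them, Ttr, Aqp1 and Tmem72, passed the adjusted p. Over all genes these shares were 3.7% and 0.0324%. In the miR-9 experiment, where Ttr did not follow the groups, the 6 mice gave a correlation of Gfap with Ttr (both log2 CPM) of r = 0.91 (Pearson, exact permutation p = 0.0361, 0.0722 adjusted over 4 relations) and rho = 0.89 (Spearman, exact permutation p = 0.0333, 0.133 adjusted). Without the 2 mice farthest from the median of Ttr r was 0.86. These 4 relations, of Gfap, Clu, Apoe and Ntsr2, were chosen after their values were seen, and none passed an adjusted p of 0.05. Because Ttr separates the groups of the miR-34 experiment, no pooled relation was taken there. Within its GFP Ctrl mice, mouse 8, with the most Ttr (2197 CPM), had the least Gfap (366 CPM). Mouse 10, with the least Ttr (583 CPM), had 386 CPM of Gfap, and mouse 4 (1821 CPM of Ttr) had 389 CPM. Within its sponge mice, mouse 18, with the least Ttr (28 CPM), had the least Gfap (304 CPM). Mouse 13, with the most Ttr (104 CPM), had 340 CPM of Gfap, and mouse 3 (91.1 CPM of Ttr) had 353 CPM. A relation within these groups of 3 mice was not tested. The amount of choroid plexus RNA and the sponge cannot be told apart for Gfap in that experiment. The same limit holds for every other gene and list compared between these groups, and for the differences between the sponge effects.

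**Figure D3:**
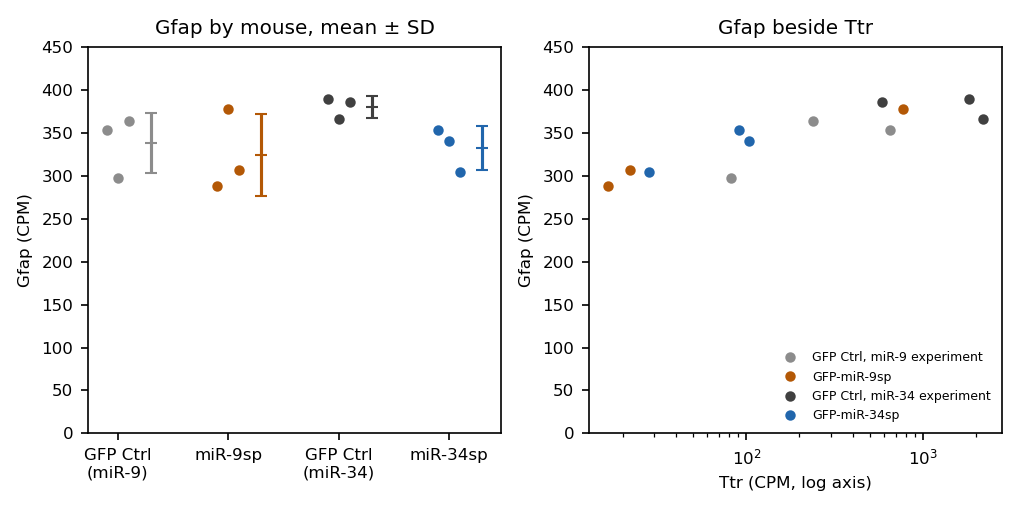
Left, Gfap (CPM) in each mouse of the 4 groups with the mean ± SD (n = 3), and right, the same values against Ttr (CPM, log axis). The GFP-miR-34sp mice (304 to 353 CPM) lie below their GFP Ctrl mice (366 to 389 CPM) and at lower Ttr, and in the miR-9 experiment both groups spread along Ttr.

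Clu had 1133, 1132 and 1102 CPM in the GFP-miR-34sp mice and 1217, 1220 and 1200 CPM in GFP Ctrl. The groups did not overlap, with a log2 fold change of -0.11 ± 0.03 (95% interval -0.18 to -0.04, edgeR adjusted p = 0.496). Over the 6 mice of the miR-9 experiment the correlation of Clu with Ttr was r = 0.89 (exact permutation p = 0.0319, 0.0722 adjusted) and rho = 0.77 (exact permutation p = 0.103, 0.206 adjusted). Without the 2 mice farthest from the median of Ttr r was 0.95.

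Apoe had 1844, 1819 and 1771 CPM beside 1901, 2011 and 1844 CPM. The groups touched at 1844 when rounded but did not overlap, and the log2 fold change was -0.08 ± 0.04 (95% interval -0.17 to 0.00, edgeR adjusted p = 0.775). Its correlation with Ttr in the miR-9 experiment was r = 0.57 (exact permutation p = 0.239, 0.319 adjusted) and rho = 0.37 (exact permutation p = 0.497, 0.663 adjusted), with r = 0.64 without the same 2 mice. Ntsr2, a neurotensin receptor found on astrocytes, had 127, 127 and 123 CPM beside 136, 132 and 136 CPM, a log2 fold change of -0.10 ± 0.04 (edgeR adjusted p = 0.714). Its r with Ttr was 0.42 (exact permutation p = 0.4, 0.4 adjusted), 0.81 without those mice, and its rho -0.03 (exact permutation p = 1, 1 adjusted). The ratios of these 4 genes were all smaller than 1.2-fold, although the interval of Gfap reached beyond it.

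All 4 secreted proteins were lower in GFP-miR-34sp mice, with log2 fold changes of -0.11 to -0.05. Sparcl1 had 2533, 2762 and 2715 CPM beside 2687, 2972 and 2671 CPM and overlapped, as did Htra1, a secreted protease, at 225, 224 and 195 CPM beside 225, 224 and 217 CPM.

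Of the 6 tested genes of glutamate, GABA and amino acid handling, 5 were lower, with a median of -0.026. Slc1a2, the main glutamate transporter of the forebrain, had 84.3, 114 and 102 CPM beside 108, 112 and 104 CPM, and mouse 3 was the lowest of all 12 mice. Slc6a11 had 261, 287 and 276 CPM beside 286, 350 and 276 CPM, with mouse 8 of GFP Ctrl above the rest of that experiment. Glul, with a log2 fold change of -0.01 ± 0.04 (2349, 2301 and 2212 CPM beside 2286, 2415 and 2190 CPM), and Slc1a3, at -0.01 ± 0.04, were nearly level between the groups.

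Of the 6 tested genes of water, ion, junction and membrane proteins, 5 were lower, with a median of -0.055. Aqp4 had 286, 316 and 301 CPM beside 321, 355 and 303 CPM, a log2 fold change of -0.12 (95% interval -0.24 to 0.01, edgeR adjusted p = 0.805), and the groups overlapped. Gja1, the main connexin of astrocytes, differed by -0.05 ± 0.05 and Hepacam by 0.03 ± 0.05, in the other direction. Of the 6 metabolic enzymes 5 were lower, with a median of -0.042, and Dio2 was higher by 0.08 ± 0.08 at 101, 110 and 90.2 CPM beside 91.9, 105 and 88.5 CPM.

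The 7 receptors, surface and signalling proteins had a median of -0.051 with 5 lower. The 2 higher were the thinly counted Fgfr3 (0.23 ± 0.36) and Ndrg2 (0.07 ± 0.22), and S100b, a calcium-binding protein, differed by -0.05 ± 0.06. Sox9 and Id4 were lower by small amounts (log2), at -0.03 ± 0.06 and -0.09 ± 0.06. The 5 genes that carry the miR-34 heptamer all had log2 fold changes below 0 in GFP-miR-34sp mice, of -0.15 ± 0.08 for Slc6a11, -0.14 ± 0.07 for F3, -0.12 ± 0.06 for Aqp4, -0.10 ± 0.05 for Ppp1r3c and -0.10 ± 0.09 for Slc1a2. None of the 5 passed an unadjusted p of 0.05 in edgeR. Of all 32 tested astrocyte genes 27 were below 0 in that experiment, and the share among all genes with the heptamer was not computed.

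**Figure D4:**
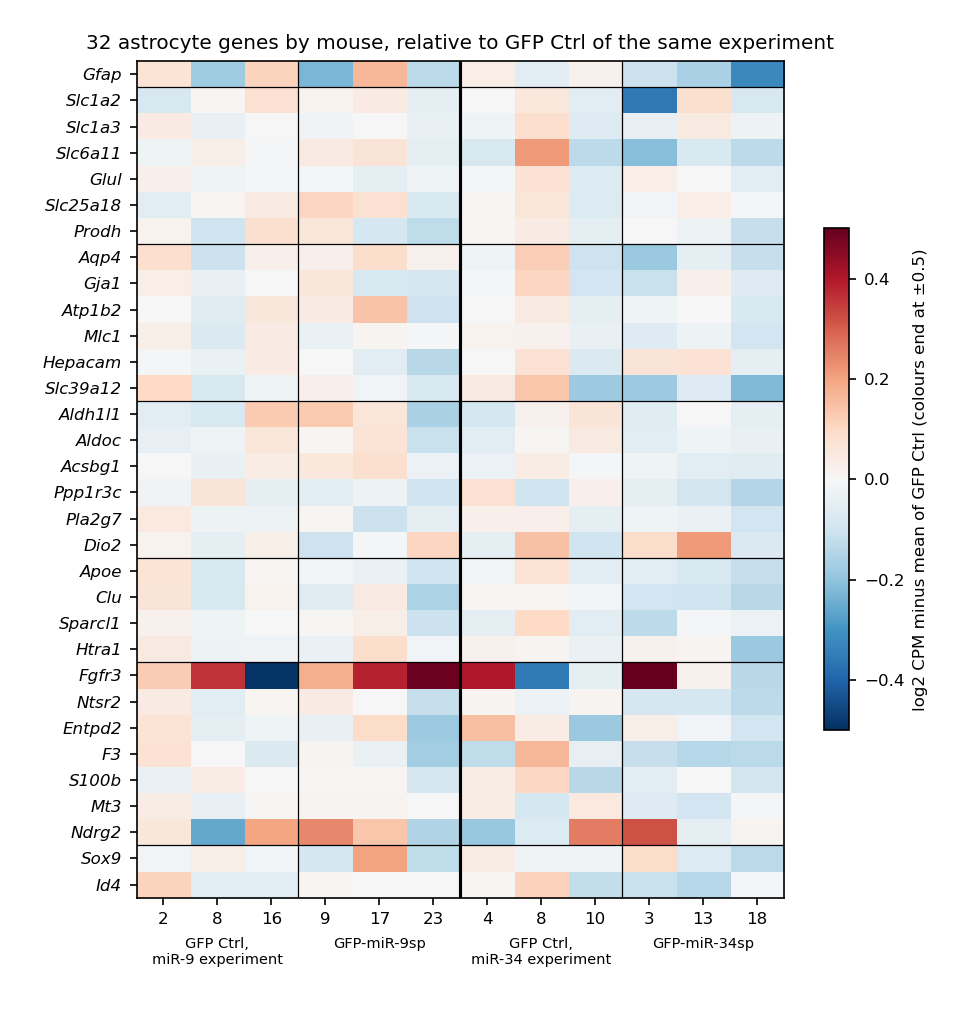
Log2 CPM of the 32 tested astrocyte genes in each of the 12 mice (columns, by mouse number) minus the mean of the GFP Ctrl mice of the same experiment, with colours ending at ±0.5 and lines between role groups. Columns tend to be of 1 colour, as in mouse 23 of GFP-miR-9sp and mouse 18 of GFP-miR-34sp, and the strong colours of Fgfr3 and Ndrg2 are genes with few reads.

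The reactive gene was then set against the homeostatic genes within each mouse, as log2 CPM of Gfap minus the mean log2 CPM of the 31 other tested genes. In the miR-34 experiment this was 1.15, 1.10 and 1.00 in sponge mice and 1.26, 1.14 and 1.30 in GFP Ctrl. The sponge mouse with the highest value lay just above the GFP Ctrl mouse with the lowest, so the groups overlapped. The group means differed by -0.15 (sponge minus GFP Ctrl), from a difference of -0.20 for Gfap and -0.04 for the mean of the others. In the miR-9 experiment the values were 0.79, 1.16 and 0.96 beside 1.08, 0.89 and 1.14, a difference of -0.07, with -0.00 for the others. This difference rested on single mice, as it was 0.03 without mouse 9 of GFP-miR-9sp, -0.01 without mouse 16 of GFP Ctrl and 0.08 without both. In the miR-34 experiment it stayed below 0 under each alternative, at -0.20 to -0.11 with each mouse left out and -0.09 when all genes with at least 1 read were kept. No test was made of this score.

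The effects of the sponges were compared in 1 model of all 12 mice. No astrocyte gene differed between them at an adjusted p of 0.05 (edgeR, 0% of 12694 genes), and 0 of 32 did at an unadjusted p of 0.05 (6.14% of all genes). The effect of miR-34sp was the lower of the pair for 25 of 32 genes (50.9% of all genes), with a median difference of -0.040 (log2). The smallest p belonged to Aqp4, with a difference of -0.16 (95% interval -0.33 to 0.02, edgeR adjusted p = 0.821).

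A further 66 genes of astrocytes, 53 of them tested, were set beside the 37. In the miR-9 experiment 24 were higher and 29 lower, with a median log2 fold change of -0.013, and 2 were lower at an unadjusted p of 0.05, Abcd2, a peroxisomal fatty acid transporter, and the metallothionein Mt1 (both -0.13). Of all genes 50.3% were lower there, and 4.76% were called in either direction at that p in edgeR. In the miR-34 experiment 28 were higher and 25 lower, with a median of 0.007, unlike the 37 genes above. At an unadjusted p of 0.05, 1 of these was higher, the glutamate receptor subunit Grin2c (0.13 ± 0.06), and 5 were lower. Of all genes 50.3% were lower there, 6.38% were called at that p in edgeR and 3.7% were called lower. The lower genes were Agt, the precursor of angiotensin (-0.40 ± 0.10), Mgst1, a glutathione transferase (-0.43 ± 0.12), Vcam1, an adhesion molecule (-0.23 ± 0.09), Ezr, a membrane linker (-0.18 ± 0.06), and Igfbp2, a binding protein of growth factors (-0.79 ± 0.20). None passed an adjusted p of 0.05 in edgeR. These genes were named after their values were seen. Igfbp2 had 41.1, 35.1 and 30.6 CPM in GFP-miR-34sp mice beside 64.4, 81.6 and 40.9 CPM in GFP Ctrl, so the groups overlapped. For Igfbp2, too, the amount of choroid plexus RNA and the sponge cannot be told apart in that experiment. Its relation to Ttr was not tested.

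Genes known to rise in reactive astrocytes were mostly at low counts. Of 12 pan-reactive genes 9 could be tested. In the miR-9 experiment 7 were lower and 2 higher, with a median log2 fold change of -0.113, and Cxcl10, a chemokine (-1.33 ± 0.45), Aspg, an asparaginase (-0.66 ± 0.23), and Vim, an intermediate filament protein (-0.13 ± 0.05), were lower at an unadjusted p of 0.05. In the miR-34 experiment 9 of 9 were lower, with a median of -0.215, and Hspb1, a small heat shock protein (-0.40 ± 0.16), and Serpina3n, a protease inhibitor (-0.21 ± 0.07), were lower at an unadjusted p of 0.05. Serpina3n had 72.4, 73.3 and 68.4 CPM in GFP-miR-34sp mice and 89.3, 72.1 and 87.3 CPM in GFP Ctrl, so 1 GFP Ctrl mouse lay within the sponge group. The edgeR adjusted p of these genes was at least 0.63. Of all genes 50.3% were lower in each experiment. At an unadjusted p of 0.05 edgeR called 4.76% of all genes (miR-9) and 6.38% (miR-34, 3.7% lower). Lcn2 and Cd44, which are strongly raised in reactive astrocytes, were at or below 0.641 and 0.0858 CPM in all 12 mice. Cd44 has 6 RefSeq entries, so its low counts are no measure of its expression.

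Of 13 genes of the A1 class, a reactive state described after inflammation, 10 were tested in the miR-9 experiment (8 lower, median -0.219, H2-D1 at an unadjusted p of 0.05) and 9 in the miR-34 experiment (8 lower, median -0.199, Gbp2 at an unadjusted p of 0.05). Gbp2 had 5.46, 6.95 and 5.13 CPM in GFP-miR-34sp mice beside 16.5, 6.43 and 6.82 CPM in GFP Ctrl. Its groups overlapped, and mouse 4 of GFP Ctrl stood apart. The groups of H2-D1 in the miR-9 experiment overlapped as well. Of 12 genes of the A2 class, described after ischaemia, 6 were tested in the miR-9 experiment (2 lower, median 0.044) and 5 in the miR-34 experiment (5 lower, median -0.139, Tm4sf1 at an unadjusted p of 0.05). The shares over all genes were those given above, 50.3% lower and 4.76% (miR-9) or 6.38% (miR-34) called. No reactive gene of these 3 lists passed an adjusted p of 0.05 in edgeR, and the genes were named after their values were seen. The medians of the 3 lists were below 0 in both experiments, except that of the A2 list in the miR-9 experiment.

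**Figure D5:**
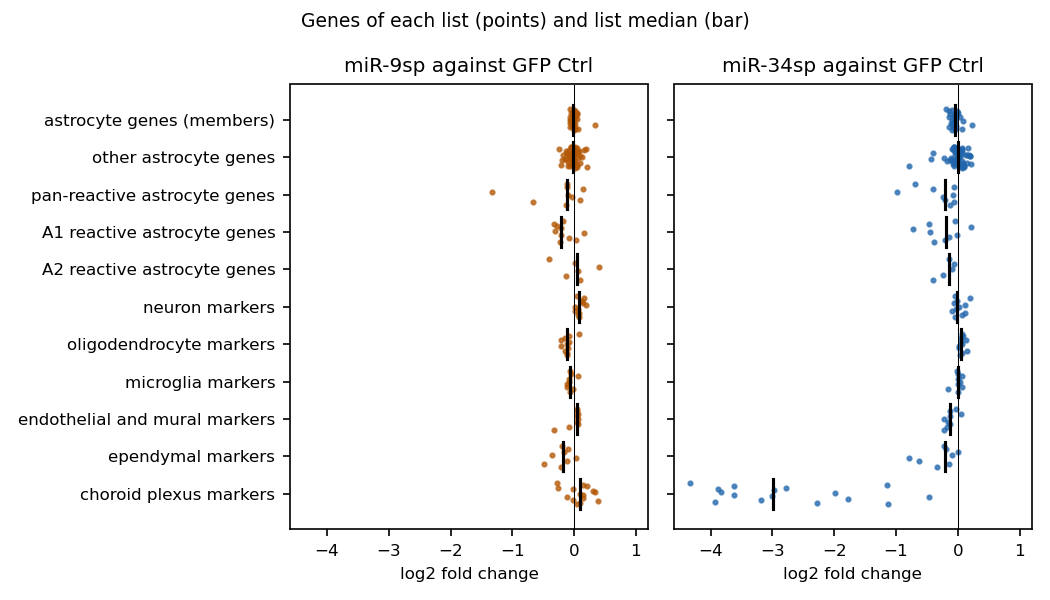
Fold change (log2, sponge minus GFP Ctrl) of each tested gene (points) and the median (bar) for the 37 astrocyte genes, other astrocyte and reactive genes and markers of other cell types, 3 mice against 3 in each panel. The astrocyte genes lie near 0 in both panels, and the choroid plexus markers stand apart in the miR-34 experiment, with a median of -2.99.

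Other cell types were measured for comparison. Neuron markers had a median log2 fold change of 0.080 in the miR-9 experiment, with 11 of 11 higher and 3 of them (Slc17a7, Camk2a and Grin1, named after their values were seen) at an unadjusted p of 0.05, and of -0.016 in the miR-34 experiment. Of all genes in the miR-9 experiment 50.3% were lower and 4.76% had an unadjusted p under 0.05 in edgeR. Snap25, a synaptic protein, had 221, 197 and 228 CPM in GFP-miR-9sp mice beside 214, 215 and 194 CPM. Oligodendrocyte markers had medians of -0.114 and 0.059, those of oligodendrocyte precursors 0.031 and -0.006, microglia -0.073 and 0.001, endothelial and mural cells 0.047 and -0.125, and ependymal cells -0.176 and -0.205, in the miR-9 and miR-34 experiments. Choroid plexus markers had a median of 0.096 in the miR-9 experiment. Of the defining markers, Mbp of oligodendrocytes lay between 81.9 and 107 CPM, Cx3cr1 of microglia between 91.2 and 113 CPM and Cldn5 of endothelium between 43.1 and 60.4 CPM over the 12 mice, and none differed at an adjusted p of 0.05 in edgeR.

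Mice of the same group differed little in their astrocyte genes. The pooled SD within groups of the 30 genes with a mean count above 100 had a median of 0.072 (log2), against 0.079 over all 9152 such genes, though it was 0.053 for the 2318 genes whose level lay between the lower and upper quartile of the astrocyte genes. It was smallest for Mlc1 and Acsbg1 (0.041) and largest for Gfap (0.143, or 10.4% of the level). The next largest were Slc1a2 (0.122) and Entpd2 (0.118).

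After removal of the group means, astrocyte genes varied together from mouse to mouse. The median correlation between pairs of the 30 genes over the 12 mice was r = 0.36, with 81.8% of pairs above 0, and it was 0.27 with the other astrocyte genes. It was 0.42 with choroid plexus markers, 0.29 with markers of oligodendrocyte precursors, 0.27 with those of endothelial and mural cells and 0.20 with those of microglia. It was -0.03 with oligodendrocyte markers, -0.06 with neuron markers and -0.03 with all other genes. The pairs share the same 12 libraries and their depth, so the values are a description. In mouse 23 of GFP-miR-9sp 3 of 30 genes were above the mean of the group, in mouse 17 of that group 24 of 30, in mouse 8 of the miR-34 GFP Ctrl group 25 of 30 and in mouse 10 of that group 6 of 30. These mice, the farthest from their group means, lay 0.060 below, 0.043 above, 0.053 above and 0.053 below those means on average (log2). The median effect of miR-34sp was -0.050, which is a difference between groups of 3 mice and not a deviation of 1 mouse.

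The levels were similar in the 2 experiments. On a scale common to the 12 mice the median ratio of the miR-9 to the miR-34 experiment was 0.988 for the 32 genes and 1 over all genes. The 6 mice of one experiment did not overlap the 6 of the other for 5 of 32 genes (20.5% of all genes). Atp1b2, a subunit of the sodium pump, was higher in the miR-9 experiment, as were 8.45% of all genes (834 to 992 against 684 to 744 CPM, a ratio of 1.27). Mt3 (0.752), S100b (0.851), Mlc1 (0.878) and Glul (0.931) were lower, as were 12.1% of all genes. Gfap overlapped, at 283 to 371 CPM in the miR-9 experiment beside 310 to 397 CPM in the other. The experiments were sequenced to different depths and their headers name the RNA differently, so experiment and library batch cannot be told apart.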

How the data were processed

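The deposited values are raw counts, made by the authors per RefSeq transcript from mapped 50 bp single end reads, trimmed, of poly-A enriched libraries (NuGEN Ovation RNA-Seq). The paper gives mm9 as the genome, while the submitters' processing notes name STAR and mm10, and the rule for reads shared between entries is not given in the sources used here. The other deposited value is the length of each entry in bases. Of 32850 entries 98.7% were joined to a symbol (RefSeq, GRCm38.p6) and summed. In the miR-9 experiment the column headers contain the word totRNA. One set of GFP Ctrl mice is labelled with the miR-34 experiment, and the other was assigned to miR-9, since the methods describe 3 such mice for each sponge. The labels do not tie mice to litters or cages.

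Genes with a mean scaled count above 10 over the 6 mice of an experiment were tested in edgeR 4.0.16 (R 4.3.3) by quasi-likelihood after TMM scaling, with Benjamini-Hochberg adjustment over all genes and a limit of 0.05. The SE of a log2 fold change was its size divided by the square root of F, and intervals used the t distribution with the degrees of freedom of the fit. The difference between the effects was fitted to 12 mice. The scripts were tested on simulated data. Exact permutation tests were two-sided. Alternatives were DESeq2 1.42.0, other scalings and filters, 1 model of all mice, the study's criterion (an unadjusted p under 0.05 with a ratio above 1.2 or below 0.833), transcript entries, and each mouse left out. The 37 genes and the other lists were chosen with earlier results of these data known. Genes were named by rule: Gfap, the 5 with the smallest p of each sign in each experiment, those whose groups did not overlap, the 3 highest and 3 lowest, and 1 defining marker for each other cell type. The others are named with their role group, as carriers of a heptamer, or after their values were seen.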

Additional observations from a re-analysis of the deposited data

How the results depend on the processing

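Of 127 values recomputed under alternatives, 5 turned their sign, all 5 of them in the miR-9 experiment and none with a call. The 127 include counts of called genes, which cannot turn their sign. With all genes of at least 1 read kept, the count of astrocyte genes called after miR-34 inhibition went from 0 to 1, Gfap, whose log2 fold change stayed at -0.19 with an edgeR adjusted p of 0.0462 in place of 0.467, while the calls over all genes went from 4 to 80 (from 0 to 2 in the miR-9 experiment). The adjusted p of Gfap in that experiment ranged from 0.0462 to 0.865 over all alternatives. DESeq2 called 35 genes in all there and 2 in the miR-9 experiment, and the study's criterion called 245 and 185 genes, none of them an astrocyte gene. The criterion was applied here to counts summed per symbol, and these totals are larger than those the paper reported. The log2 fold change of Gfap after miR-9 inhibition turned from -0.06 to 0.02 without GFP-miR-9sp mouse 9, and to 0.07 without both mice rich in NR_046233, and the difference of Gfap from the other genes turned from -0.07 to 0.03 and 0.08 in these fits. The median turned from -0.017 to 0.011 without GFP-miR-9sp mouse 23. The difference of Gfap from the other genes after miR-34 inhibition went from -0.15 to -0.09 with all genes of at least 1 read. With each mouse left out the log2 fold change of Gfap was -0.19 to 0.02 after miR-9 inhibition, and -0.24 to -0.13 after miR-34 inhibition. The medians were then -0.034 to 0.011 and -0.076 to -0.031, the differences of Gfap from the other genes -0.17 to 0.03 and -0.20 to -0.11, and 0 astrocyte genes were called. No paired analysis was possible because the sponge and GFP Ctrl mice of an experiment share no mouse number. Of the genes with several RefSeq entries 5 had too few reads to be tested, and 3 mice a group limit single genes to differences of about the intervals given.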
